A study of Arabidopsis thaliana with 9 samples.

Results

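The late embryogenesis abundant (LEA) genes outside the dehydrin family were followed through 10 named members, of 30361 genes on the array. They were set by a list of loci, with earlier results of these data known: EM1 (AT3G51810), EM6 (AT2G40170), M10 (AT2G41280), M17 (AT2G41260), ECP63 (AT2G36640), ECP31 (AT3G22500), AT3G22490, LEA4-5 (AT5G06760), LEA4-2 (AT2G35300, also called LEA18) and AT3G17520. Total RNA came from whole seedlings grown for 12 days on MS agar plates with 16 h of light and 8 h of dark at 22°C, and each array was hybridised with RNA pooled from 10 to 12 plants. The groups were the clf swn double mutant, mutated in both methyltransferases of Polycomb Repressive Complex 2 (PRC2) that act in seedlings (3 pools), siFIE, first-generation RNAi plants with about 10% of wildtype FIE mRNA according to the labels (3 pools), and wildtype Col (3 pools). The sample titles name the double mutant clf-7 swn-28 whereas the growth notes name swn-7 clf-28, and its plants are sterile and were picked from the progeny of plants heterozygous for clf. The siFIE plants were selected on 50 mg per litre kanamycin and only those of intermediate phenotype were pooled. The methods of the study give 10% of wildtype Col as the highest FIE mRNA level found in them by RT-qPCR. Each T1 plant is a separate transformant, so a pool mixes transformants. The labels place siFIE in C24 and the methods of the study place it in Col, and all wildtype arrays were Col, so that any effect of ecotype or selection cannot be told apart from that of the RNAi. The promoter that drives the RNAi is not given in the sources used here.

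LEA proteins are small, hydrophilic and mostly unstructured, and they accumulate in the embryo late in seed development, when the seed dries. They are sorted into groups by sequence motifs and are known for protecting membranes and enzymes during desiccation. Their genes are under the control of ABI3, ABI5 and the LEC and FUS3 regulators in the seed, respond to abscisic acid (ABA), and are normally shut off after germination. PRC2, of which FIE is a core subunit and CLF and SWN alternative catalytic subunits, places H3K27me3, a mark of silenced genes, over seed genes in seedlings. In whole seedlings a lower share of cells of a type and less RNA per cell cannot be told apart.

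The sequence held for EM1 and ECP63 was itself repetitive, and this is shown first because array probes of 60 bases were used to measure the genes. The study's list of FIE-HA regions that coincide with H3K27me3 held sequence for 4 of the 10 genes, EM1, M17, ECP63 and LEA4-2. At most 399 bases of a region were held, so those of M17 and ECP63 were read only in part. The region over the gene body of EM1, the group 1 LEA protein homologous to the Em protein of wheat, was chr3:19215130-19215530 (TAIR9), and within it a unit of 60 bases stood 4 times in a row, with 81.7% to 95% identity between units. The units are printed 5′ to 3′ on the strand of that list, which need not be the coding strand of the gene, and capitals mark bases that differ from the first unit.
EM1 unit 1: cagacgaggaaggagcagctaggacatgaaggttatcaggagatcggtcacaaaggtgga
EM1 unit 2: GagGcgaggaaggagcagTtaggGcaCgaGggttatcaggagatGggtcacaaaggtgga
EM1 unit 3: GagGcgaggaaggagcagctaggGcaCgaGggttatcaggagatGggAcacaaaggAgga
EM1 unit 4: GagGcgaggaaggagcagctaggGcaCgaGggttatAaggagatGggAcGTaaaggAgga

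The region over the gene body of ECP63, a group 3 LEA protein, was chr2:15357620-15358330 (TAIR9). In the part held, units of 33 bases were less alike, with 57.6% to 87.9% identity between 4 units in a row. The length of 33 was set, and the shift with the highest identity to itself was 66 bases (55.0%, against 53.6% at 33). The units are printed in the same way, with capitals for bases that differ from the first unit.
ECP63 unit 1: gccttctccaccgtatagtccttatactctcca
ECP63 unit 2: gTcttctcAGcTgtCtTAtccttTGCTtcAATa
ECP63 unit 3: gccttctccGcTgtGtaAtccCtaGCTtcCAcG
ECP63 unit 4: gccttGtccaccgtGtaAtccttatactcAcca

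The sequences held for M17 and LEA4-2 had no such repeat, with at most 32.3% and 34.7% identity to themselves at any shift of 10 to 149 bases. The probe sequences were not used here, so which probes lie in repeat units was not tested.

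Arrays of a group correlated across genes, which are no replicates, at r = 0.991 to 0.994, and arrays of different groups at 0.915 to 0.978. Precision is limited by there being 3 arrays a group. Each targeted gene was lower in the line that targets it than in Col. The RMA signal is a linear intensity per gene after background correction, quantile normalization and summary over its probes, as the RMA method does. FIE had RMA signals of 244, 281 and 321 in siFIE, against 1976, 1768 and 1786 in Col, or 0.152 times the Col level. Without background correction FIE was at 0.580 times the Col level in siFIE (adjusted p = 2.58e-04), and it was not called down in any of the 3 fits that started from probe signals. SWN had 179.8, 392 and 118 in clf swn, against 11186, 11516 and 11643 in Col, and CLF averaged 4014 in clf swn, against 11640 in Col.

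All 10 LEA genes were up-regulated in clf swn relative to Col, by 4.78-fold (M10) to 609-fold (LEA4-2) with a median of 155-fold, where 8.78% of all genes were called up. A gene was called where the limma adjusted p over all genes was under 0.05 and the change was more than 2-fold. In each of the 10 genes every clf swn array lay above every Col array, which was so for 30% of all genes, and the highest adjusted p of the 10 was 7.06e-06. The median log2 change of the 10 genes was 7.27, against 0.05 for all genes, and 5 of the 10 stood among the 100 largest rises on the array. In siFIE, 5 of the 10 genes were called up, where 4.51% of all genes were called up, and the median log2 change was 1.36, against -0.02 for all genes. The 5 were EM1, M17, ECP63, LEA4-2 and AT3G17520, and in 9 of the 10 genes every siFIE array lay above every Col array, against 18.4% of all genes.

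**Figure D1:**
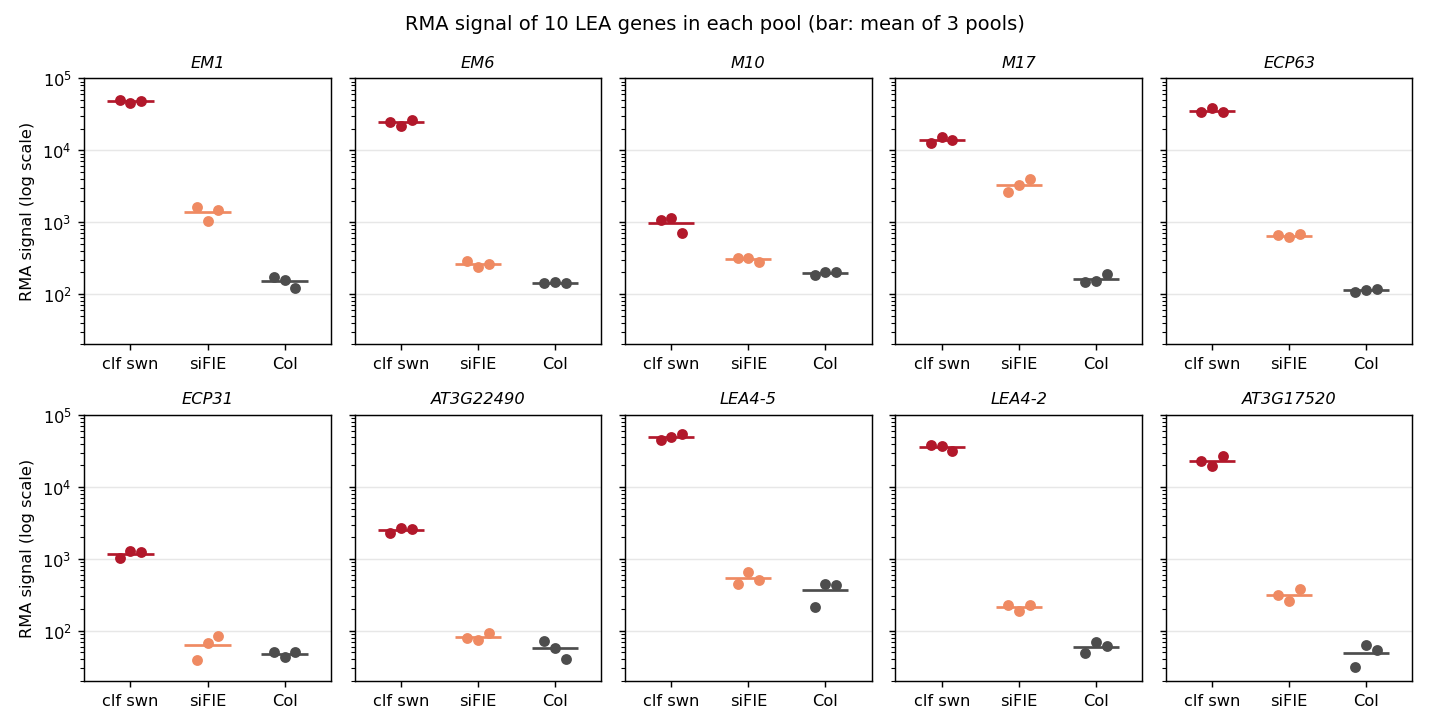
RMA signal on a log scale (vertical axis) of each of the 10 LEA genes in the 3 pools of clf swn, siFIE and Col (points), with the group mean as a bar. In every panel the clf swn points lie above all others, while siFIE lies clearly above Col for M17, with 2618 to 4011 against 149 to 191, and overlaps Col for ECP31.

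The Em proteins EM1 and EM6 are the group 1 members, very hydrophilic proteins of the mature embryo. EM1 had RMA signals of 50232, 45777 and 49175 in clf swn, 1617, 1029.7 and 1489 in siFIE, and 175, 159 and 119.8 in Col. The 3 groups were separated from each other without overlap. The log2 change of EM1 was 8.34 ± 0.20 (SE), or 324-fold, in clf swn (limma adjusted p = 3.04e-09). In siFIE it was 3.18 ± 0.20, or 9.07-fold (adjusted p = 8.19e-06). EM6 had 25072, 22004 and 26141 in clf swn, 286, 236 and 259.8 in siFIE, and 142, 148 and 142 in Col. Every siFIE array was above every Col array for EM6 too, but the difference was small. The change of EM6 was 169-fold in clf swn (adjusted p = 4.04e-10), and in siFIE it was 1.81-fold (adjusted p = 8.88e-04), which is under the 2-fold threshold.

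ECP63 and AT3G17520 are group 3 LEA proteins, which carry a short repeated motif that can fold into helices on drying. ECP63 had RMA signals of 33699, 39090 and 34202 in clf swn, 655, 619 and 681 in siFIE, and 108, 115 and 119 in Col. Its spread within each group was small, and its change was 312-fold in clf swn (adjusted p = 2.87e-10) and 5.71-fold in siFIE (adjusted p = 1.06e-06). AT3G17520 had 23087, 19869 and 26958 in clf swn, 318, 262 and 374 in siFIE, and 30.8, 62.5 and 54.5 in Col. The groups did not overlap, and the changes were 490-fold in clf swn (adjusted p = 1.04e-08) and 6.67-fold in siFIE (adjusted p = 1.03e-04). The rise of AT3G17520 in siFIE depended on the processing. It was 1.46-fold from probe signals without background correction, and the call was lost in each of the 3 fits that started from probe signals.

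LEA4-5 and LEA4-2 are group 4 LEA proteins, a group whose Arabidopsis members are known to accumulate in dry seeds and, for LEA4-5, in plants short of water. LEA4-5 had RMA signals of 44545, 49252 and 53769 in clf swn, 448, 661 and 499.7 in siFIE, and 216, 446 and 436 in Col. The Col pool with 216 lay well under the other two, and the lowest siFIE pool was close to the highest Col pool. LEA4-5 rose 141-fold in clf swn (adjusted p = 5.04e-08), whereas its 1.52-fold difference in siFIE had an adjusted p of 0.161. LEA4-2 had 38532, 37218 and 32116 in clf swn, 231, 190.3 and 226 in siFIE, and 48.4, 69.4 and 60.6 in Col. The 3 groups did not overlap, and the change of LEA4-2 in clf swn was the largest of the 10 genes at 609-fold (log2 9.25 ± 0.16, adjusted p = 5.21e-10). In siFIE it was 3.65-fold (adjusted p = 5.18e-05), but log2 0.58 without background correction against log2 1.87 from RMA, and this call too was lost in the 3 fits that started from probe signals.

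M10 and M17 are seed maturation proteins of a small LEA group, and their genes stand next to each other on chromosome 2 with 0 protein-coding genes between them in TAIR10.1. M10 had the smallest change of the 10 genes in clf swn, and M17 the largest in siFIE. M17 had RMA signals of 12596, 15417 and 13741 in clf swn, 2618, 3252 and 4011 in siFIE, and 149, 151 and 191 in Col. The siFIE pools were thus far above Col and within an order of magnitude of clf swn, and the changes were 85.4-fold in clf swn (adjusted p = 7.50e-09) and, in siFIE, 19.98-fold (adjusted p = 8.22e-07). M10 had 1073, 1141 and 697 in clf swn, 320.3, 319 and 275 in siFIE, and 186, 205 and 204 in Col. The third clf swn pool of M10 was lower than the others but still above every siFIE and Col pool. Its change was 4.78-fold in clf swn (adjusted p = 7.06e-06), and in siFIE it was 1.53-fold (adjusted p = 0.041), under the 2-fold threshold. The difference between the changes of these neighbours was not tested.

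ECP31 and AT3G22490 carry the seed maturation protein (SMP) domain and are also adjacent, on chromosome 3, with 0 protein-coding genes between them. ECP31 had RMA signals of 1035, 1278 and 1243 in clf swn, 39.3, 67.6 and 85.5 in siFIE, and 49.8, 43.5 and 50.2 in Col. It was the member whose siFIE pools overlapped Col, with 1 siFIE pool below all 3 Col pools. The change of ECP31 was 24.7-fold in clf swn (adjusted p = 4.82e-07) and 1.28-fold in siFIE (adjusted p = 0.374). AT3G22490 had 2319, 2721 and 2616 in clf swn, 78.5, 74.2 and 92.1 in siFIE, and 72.4, 57.7 and 40.8 in Col. Its siFIE pools lay just above Col without overlap, and the changes were 45.9-fold in clf swn (adjusted p = 3.34e-08) and 1.47-fold in siFIE (adjusted p = 0.084). The pair thus rose together in clf swn, and neither was called in siFIE.

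The mutants were then compared directly. All 10 genes were higher in clf swn than in siFIE, where 6.82% of all genes were called up, by 3.12-fold (M10) to 167-fold (LEA4-2) with a median of 45.2-fold and adjusted p of at most 8.43e-05. Every clf swn array lay above every siFIE array for each of the 10, against 27.9% of all genes. The siFIE mean was between 0.600% (LEA4-2) and 31.4% (M10) of the clf swn mean, with 23.7% for M17, 5.41% for ECP31 and 2.85% for EM1. The clf swn over siFIE change was 4.28-fold for M17 and 35.7-fold for EM1, the members with the largest rises in siFIE. Both mutants were set against the same Col arrays, so their changes relative to Col are not independent of each other.

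**Figure D2:**
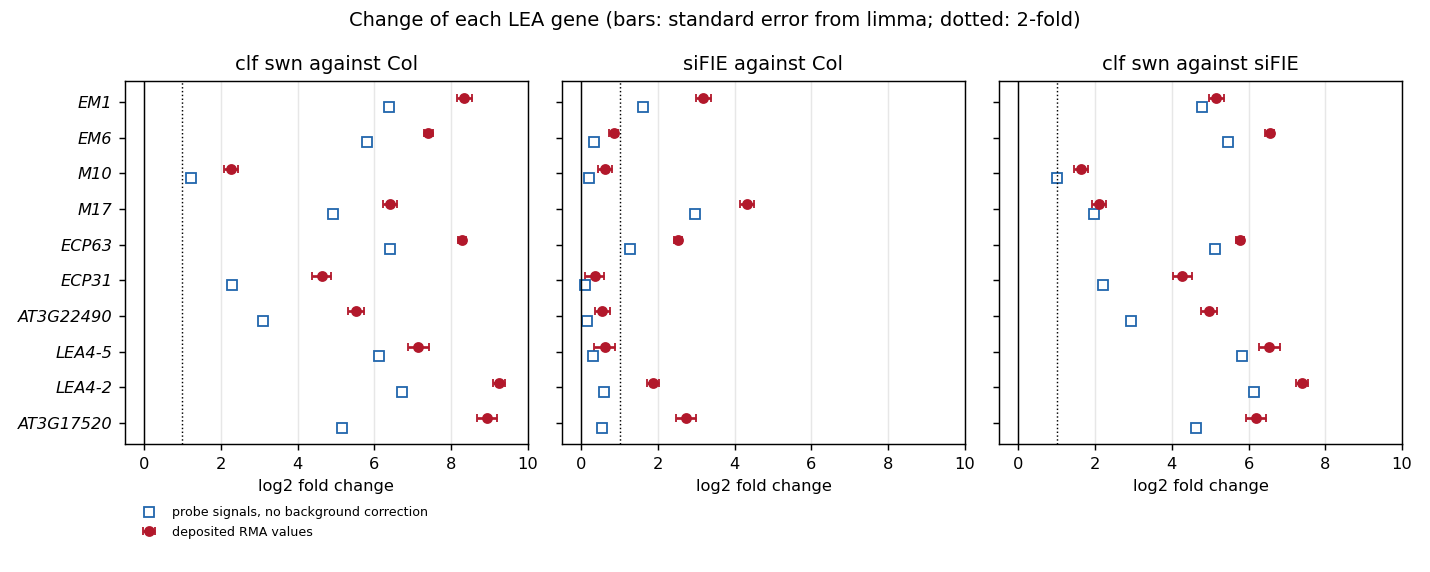
Log2 fold change (horizontal axis) of each LEA gene in 3 comparisons, from left to right clf swn with Col, siFIE with Col, and clf swn with siFIE. Filled circles are deposited RMA values with the limma standard error, open squares are probe signals without background correction, and the dotted line is a 2-fold change. The squares lie left of the circles in every row, and in siFIE the squares pass the dotted line only for EM1, M17 and ECP63.

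Fold changes of genes that are dim in Col depend on how background is handled. Without background correction the clf swn changes ran from 2.33-fold (M10) to 105-fold (LEA4-2) with a median of 46.0-fold, and the siFIE changes from 1.06-fold (ECP31) to 7.76-fold (M17) with a median of 1.36-fold. All 10 calls in clf swn were kept, where 5.15% of all genes were called up by that route. Of the 5 calls in siFIE those of EM1, M17 and ECP63 were kept, where 2.22% of all genes were called up. Between the mutants all 10 stayed called in that setting, M10 only just (2.01-fold), where 3.84% of all genes were called up. RMA signals of the 10 genes in Col were all below the median gene of the array, which averaged 1123.7. The signals of different genes come from different probes and do not rank their transcripts.

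The 10 genes had 21 probes, 3 for AT3G17520 and 2 for each other gene, and no member probe was saturated, the highest scanner signal being 62420 of a possible 65535. In 21 of 21 probes every clf swn array was above every Col array (27.5% of all probes), and 20 of the 21 were more than 2-fold higher (5.6% of all probes). The exception was the probe of M10 at base 271, with quantile-normalized signals of 1327, 1552 and 1195 in clf swn, 785, 967 and 775 in siFIE, and 706, 819 and 850 in Col, a 1.71-fold difference between clf swn and Col. The other M10 probe, at base 107, was 3.16-fold higher in clf swn. In siFIE every array was above every Col array in 14 of 21 probes (16.8% of all probes), and 5 were more than 2-fold higher (2.4% of all probes), namely both probes of EM1, both of M17 and the probe of ECP63 at base 1210. Set against siFIE, every clf swn array was higher in 21 of 21 probes (25% of all probes), and 20 were more than 2-fold higher (4.18% of all probes).

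The probes of AT3G17520 disagreed in their level in Col. The probe at base 174 had signals of 59094, 57956 and 50728 in clf swn, 5999, 5211 and 4880 in siFIE, and 6152, 10763 and 4679 in Col. It was 8.25-fold higher in clf swn and 0.79 times the Col level in siFIE, with overlapping groups. The probes at bases 53 and 802 had 257 to 325 in Col, and were 62.8-fold and 89.1-fold higher in clf swn and 1.97-fold and 1.99-fold higher in siFIE. The RMA value of AT3G17520 in Col, 49.3 ± 16.5 (SD, n = 3), thus followed the probes that were dim there. For M17, the probe at base 138 was 11.2-fold higher in siFIE than in Col and the probe at base 669 was 5.38-fold higher, so that its rise there did not rest on a lone probe. For EM1, the probes at bases 190 and 678 were 2.76-fold and 3.33-fold higher in siFIE and 46.3-fold and 151-fold higher in clf swn, the probe at base 190 being the brighter in Col with 1167, 1499.9 and 1068, against 291, 249 and 237.

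**Figure D3:**
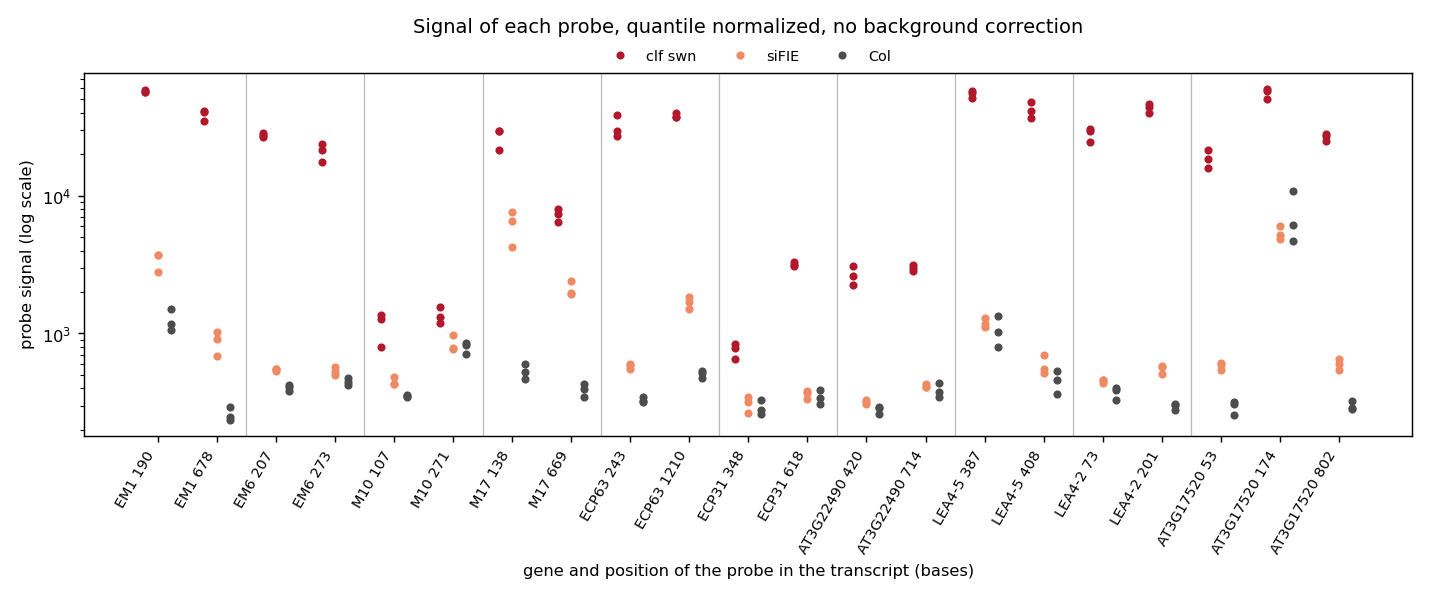
Signal of each of the 21 probes on a log scale (vertical axis), quantile normalized and without background correction, labelled by gene and position in the transcript, with 3 points each for clf swn, siFIE and Col. The clf swn points are above the Col points in all 21 probes, and the AT3G17520 probe at base 174 is bright in Col (4679 to 10763) where the other probes of that gene are dim (257 to 325).

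Over the 9 arrays Pearson's r of each gene with the mean log2 value of the other members was lowest for M17 (0.868) and highest for ECP63 (0.998). The arrays form 3 clusters and all 10 genes rose in clf swn, so r does not show that the genes responded alike, and their siFIE changes ran from 1.28-fold (ECP31) to 19.98-fold (M17). The genes outside the 10 whose log2 signal was most like the members' mean were AT1G65090 (r = 1.00), the dehydrin XERO1 (r = 0.999), AT1G03106 (r = 0.999), AT4G25580 (r = 0.999) and NADP-ME1 (r = 0.999), a malic enzyme. AT1G65090 averaged 51198 in clf swn, 408 in siFIE and 67.7 in Col. XERO1 averaged 6542 in clf swn, 283 in siFIE and 89.4 in Col. NADP-ME1 was less low in Col, with averages of 31629 in clf swn, 2492 in siFIE and 926 in Col.

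The remaining non-dehydrin LEA genes were read from a list of 31, which includes LEA genes of vegetative tissue. In clf swn 16 of the 31 were called up and 4 down, beside 8.78% of all genes up and 12.8% down, with a median log2 change of 1.28. The strongest rises reached the size of those of the 10 genes. AT4G21020 rose 646-fold, LEA4-1 (AT1G32560, group 4) 328-fold, AT5G44310 300-fold, AT3G15670 289-fold, AT3G53040 206-fold and AT1G72100 174-fold. AT4G21020 had RMA signals of 39757, 37869 and 36719 in clf swn, 278, 198 and 185 in siFIE, and 65.1, 55.8 and 56.5 in Col. The drought-induced DI21 and the senescence-associated SAG21 were high in Col already and rose 2.84-fold and 3.14-fold.

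The 4 genes called down in clf swn were COR15A and COR15B, cold-induced LEA proteins of the chloroplast, LEA3 (AT1G02820) and UNE15. COR15B had 323, 324 and 269 in clf swn, 2679.5, 3011 and 2584 in siFIE, and 4113, 5806 and 5397 in Col. Its clf swn pools were far below the others, at 0.060 times the Col level (adjusted p = 4.86e-08). COR15A was at 0.205 times, LEA3 at 0.126 times and UNE15 at 0.446 times the Col level. Without background correction LEA3 was at 0.409 times and UNE15 at 0.643 times the Col level, and UNE15 was not called in any of the 3 fits from probe signals. In clf swn 11 of the 31 were not called. Of these, the 4 genes AT2G03740, AT4G13230, AT3G53770 and AT5G53260 had group means of 31.1 to 80.6. Others were bright in Col, such as LEA26 (mean 22120, and 0.780 times that level in clf swn), LEA14 (6164, 0.957 times), AT2G23120 (4932, 1.64-fold) and LEA27 (2955, 1.32-fold). In siFIE 8 of the 31 genes were called up and 2, LEA3 and UNE15, down, with a median log2 change of 0.20, beside 4.51% of all genes up and 3.19% down. LEA4-1 rose 7.49-fold in siFIE, AT1G72100 3.19-fold, AT5G44310 4.21-fold, AT4G21020 3.68-fold and AT3G15670 3.27-fold, and UNE15 was at 0.464 times the Col level. Without background correction 1 of the 8, LEA7 (3.77-fold from RMA, 2.96-fold without correction), was called up, and neither LEA3 nor UNE15 was called down. Set against siFIE, clf swn had 14 of the 31 genes called higher and 4 called lower, beside 6.82% and 11% of all genes.

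The regulators of seed maturation were taken as a list of 11. In clf swn 10 of the 11 were called up, beside 8.78% of all genes, with a median log2 change of 4.53. Of the B3 repressors of the seed programme in the list, VAL1 was among the 10 (2.09-fold, adjusted p = 1.31e-04) and VAL2 was not called (1.04-fold). ABI3, the B3 factor that activates LEA genes in the embryo, had 35989.6, 36336 and 39878 in clf swn, 439.5, 692 and 477 in siFIE, and 61.8, 76.2 and 34.5 in Col. It was separated in all 3 groups. It rose 684-fold in clf swn, and the siFIE rise was 9.63-fold (adjusted p = 1.14e-08 and 5.62e-05). ABI4 rose 499-fold in clf swn, with 10.2-fold in siFIE. ABI5, the bZIP factor that binds ABA response elements of EM genes, rose 23.1-fold in clf swn, with 3.08-fold in siFIE, and LEC2 rose 7.94-fold, with 2.85-fold in siFIE. These 4 were the regulators called up in siFIE, beside 4.51% of all genes. Without background correction the siFIE changes were 2.14-fold for ABI3, 2.02-fold for ABI4 and 2.29-fold for ABI5, all still called. LEC2 was 1.21-fold higher there (adjusted p = 0.143), and its call was lost in each of the 3 fits from probe signals. L1L, FUS3 and DPBF2 (bZIP67) rose 151-fold, 57.3-fold and 69.0-fold in clf swn, and in siFIE they were at 1.12, 0.58 and 0.83 times the Col level and not called. For FUS3 every siFIE array lay below every Col array (19.2% of all genes), with a limma adjusted p of 0.039 but less than a 2-fold change. Without background correction FUS3 was at 0.90 times the Col level in siFIE (adjusted p = 0.276).

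**Figure D4:**
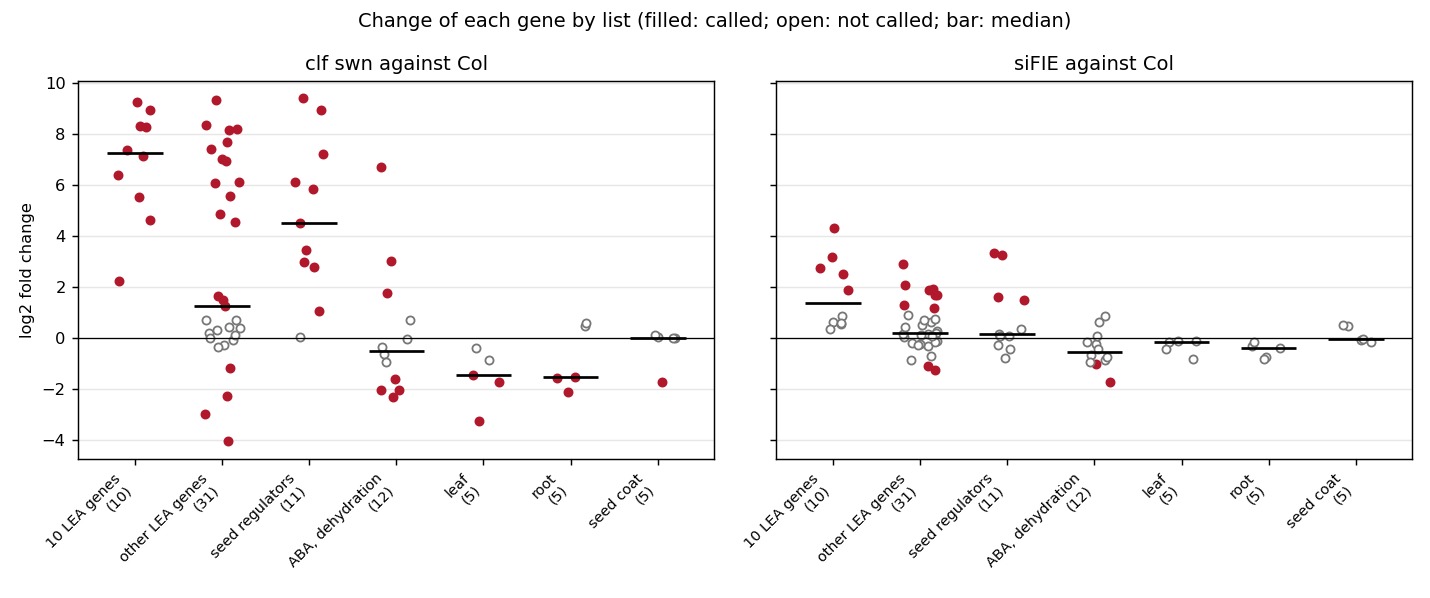
Log2 fold change against Col (vertical axis) in clf swn (left) and siFIE (right) of each gene in 7 lists, with the number of genes in brackets. Filled points were called, open points were not, and bars are list medians. The 10 LEA genes have medians of 7.27 in clf swn and 1.36 in siFIE, the other LEA genes 1.28 and 0.20, and the seed regulators 4.53 and 0.17.

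Genes of the vegetative response to ABA and drying were read from a list of 12. In clf swn 3 of the 12 were called up and 4 down, beside 8.78% and 12.8% of all genes, and the median log2 change was -0.49. RD29B, which is induced by ABA, rose 105-fold, the cold-induced KIN1 8.12-fold and the phosphatase gene HAI1 3.43-fold. NCED3, the rate-limiting enzyme of ABA synthesis under drought, was at 0.246 times, the proline synthesis gene P5CS1 at 0.202 times, ABF2 at 0.245 times and ABI1 at 0.331 times the Col level. In siFIE 0 of the 12 were called up by limma, and 0 from probe signals without background correction. NCED3 and ABF3 were called down at 0.306 and 0.494 times the Col level, beside 3.19% of all genes called down. At an unadjusted limma p under 0.05, 2 genes were higher and 7 lower in siFIE, and each of these also had an adjusted p under 0.05. Of them only NCED3 and ABF3 changed more than 2-fold.

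Some markers of other tissues moved with clf swn, in which 12.8% of all genes were called down. Of 5 leaf genes 3 were called down in clf swn and 0 in siFIE by limma (2 at an unadjusted p under 0.05), the summed leaf signal being 93766 to 104082 in clf swn, 187435 to 196547 in siFIE and 219358 to 236549 in Col. Of those 2, LHCB4.2 (0.564 times Col in siFIE, limma adjusted p = 7.77e-04) missed only the 2-fold threshold, and FBA2 had an adjusted p of 0.097. Of 5 root genes 3 were called down in clf swn, namely EXP7, COBL9 and PRP3, which are genes of root hairs. In siFIE 0 of the root genes were called down by limma (2 at an unadjusted p under 0.05). Of those 2, EXP7 (0.595 times Col in siFIE, adjusted p = 0.0082) missed only the 2-fold threshold, and PRP3 had an adjusted p of 0.112. The summed root signal was 13520 to 18763 in clf swn, 16386 to 22505 in siFIE and 25363 to 28529 in Col. The other root genes, SCR and RHD6, were 1.49-fold (adjusted p = 0.0015) and 1.40-fold (adjusted p = 0.113) higher in clf swn, with every clf swn array above every Col array, and were not called. Of 5 seed coat genes TT10 was called down in clf swn (0.301 times), with means of 580 in clf swn, 1933 in siFIE and 1925 in Col. The other seed coat genes were not called. BAN, TT12 and TT2 had means of 29.6 to 79.2 in all groups, and PMEI6 had 95.5 to 105. The part of tissue composition in the rise of the LEA genes was not tested.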

How the data were processed

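RNA was hybridised in 1 colour (Cy3) to NimbleGen arrays of 72000 probes for 30361 genes, 9 arrays on 9 slides. The authors deposited an RMA intensity per gene on a linear scale, and the intensity of each probe as written by NimbleScan 2.4.31, not normalized. The methods name DNAstar for the analysis of the arrays, without saying whether it ran RMA. Log2 RMA values of all genes were fitted with limma 3.58.1 (R 4.3.3; lmFit and eBayes, 3 group means, all 9 arrays, two-sided), with Benjamini-Hochberg adjustment over all genes, and a gene was called at adjusted p under 0.05 and more than 2-fold. The fit was tested on simulated log2 values with known changes in clf swn, which do not test the effect of background correction. Pools are separate pools of plants; p-values measure the spread between them. RMA medians per array were 1116 to 1169. Values without background correction were quantile-normalized probe signals averaged on the log2 scale. Summaries used Python 3.11.15 and pandas 2.3.3. Names came from TAIR10.1 (RefSeq), which held all 82 listed genes. The members and gene lists were chosen with earlier results of these data known, from general knowledge. Named from the other lists are up to 6 called genes per list and comparison with the smallest p, any called against a list's direction, and, chosen after their values were seen, genes that spell out a small count or complete a group, such as LEA7, DI21, SAG21, VAL1, VAL2, FUS3, KIN1, SCR, RHD6 and AT2G03740. The 5 most alike genes were those with the highest Pearson r to the members' mean. Alternatives were 3 routes from probe signals (normexp at offset 50 with quantile normalization, no background correction, and normexp with median scaling), the series table, leaving out genes with mean signal under the 25th percentile, fitting the compared groups alone, p without adjustment, a 4-fold threshold or none, replicate number as a block and leaving out each array. Quantile normalization of the RMA values was an alternative chosen after seeing the data. A block for the slide could not be fitted, each array having its own slide. Repeat units were the 4 consecutive stretches most alike in the bases held, for unit lengths of 60 (EM1) and 33 (ECP63). These lengths and the number of units were set and not searched for. Promoter motifs were not analysed here.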

Additional observations from a re-analysis of the deposited data

How the results depend on the processing

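The calls of the 10 LEA genes in clf swn against Col and in clf swn against siFIE stayed at 10 under every alternative run, except that M10 missed a 4-fold threshold between the mutants (log2 1.64). In siFIE against Col the count was 5, and 3 in each of the 3 routes from probe signals, in which LEA4-2 (log2 0.92, 0.58 and 0.90) and AT3G17520 (0.92, 0.54 and 0.91) lost their calls. The fold threshold also moved this count. Without it EM6 (limma adjusted p = 8.88e-04) and M10 (0.041) were added, and at 4-fold LEA4-2 (3.65-fold) was lost. Among the other LEA genes in siFIE, 8 up and 2 down became 5 and 0 with normexp and quantile normalization, 1 and 0 without background correction, 5 and 0 with median scaling, 13 and 4 without a fold threshold and 2 and 0 at 4-fold. Over all genes the siFIE calls also fell, from 1370 up and 968 down to 930 and 609 with normexp and quantile normalization, and to 863 and 640 with median scaling. Among the other LEA genes in clf swn, 16 up and 4 down became 15 and 3 in each route from probe signals. Between the mutants 4 of them were lower in clf swn, 2 in each route from probe signals and 1 at 4-fold. Regulators up in siFIE were 4, then 3 in each route from probe signals, which lost LEC2, and 2 at 4-fold. Without a fold threshold 1 regulator, FUS3, was down in siFIE. Leaving out each array in turn gave 10, 5 and 10 calls of the 10 genes in the 3 comparisons, 15 to 16, 8 to 9 and 14 to 16 of the other LEA genes up, 2 to 3 down in siFIE and 3 to 4 down between the mutants, and 0 to 1 regulators down in siFIE, the 1 being without Col replicate 3. Over all genes, without background correction 1564 genes were up and 2344 down in clf swn (2666 and 3896 from RMA), 675 and 439 in siFIE (1370 and 968), and 1165 and 1849 between the mutants (2072 and 3349). Replicate numbers were not taken as pairs. Deviations of same-numbered arrays correlated at -0.16 to 0.17, and those of differently numbered arrays at -0.15 to 0.20. With the replicate number as a block 10, 5 and 10 of the LEA genes were called, with no call of theirs changed. Signals near background limit the folds of genes dim in Col.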
